A study of Mus musculus with 12 samples.

Results

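A set of 45 genes of chemokines, cytokines, NF-kB components and acute inflammatory proteins was followed through mouse embryonic fibroblasts (MEFs, fibroblasts cultured from embryos) in which members of the retinoblastoma (Rb) gene family had been deleted. The 45 genes were listed by name, with no threshold on values, but with earlier results of these data known. Of them, 42 could be matched by gene symbol to the 18193 named genes of the array. Il1rl1, Nfkb1 and C3 had no probe set under these symbols in the annotation used and were not analysed here. A total of 4 groups were compared with 3 Affymetrix MOE430 2.0 arrays each, and the cells were untreated and growing exponentially. These were MEFs of wild type (WT), MEFs labelled with a deletion of Rb1 (Rb1KO), MEFs with deletions of Rb1, p107 and p130 (TKO, p107 being the product of Rbl1 and p130 that of Rbl2), and TKO MEFs with these same deletions and RasG12D, an activated form of the signalling GTPase Ras (TKO-Ras). TKO-Ras and TKO therefore share all 3 deletions. How the Rb1KO and TKO-Ras cells were made is not given in the sources used here, and the TKO cells came to the study from another laboratory. Arrays of a group are described as biological replicates, without word on whether embryos or cultures were separate, so a p-value measures the spread between these RNA samples, which may be technical.

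Chemokines are small secreted proteins that draw leukocytes toward the cell that releases them, and fibroblasts release many of them when stimulated by bacterial products or by the cytokines TNF and IL-1. These signals free the transcription factor NF-kB, a dimer of Rel proteins, from its cytoplasmic inhibitor IkB-alpha (gene Nfkbia), after which NF-kB enters the nucleus and binds decamer sites in the promoters of chemokine, cytokine and acute-phase genes. Nfkbia, Tnfaip3, Relb and Birc3 are themselves NF-kB targets, and Nfkbia and Tnfaip3 encode proteins that shut the pathway down. The Rb family proteins are best known as brakes on the E2F factors that drive cells into the DNA synthesis phase.

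Values are log2 signals of the RMA method, 1 per probe set and array, and a log2 difference, the log2 fold change of the plots, is a difference between group means of these values. Signals up to 5.13 were treated as background, a level set by the probe sets of olfactory receptors, genes that fibroblasts do not use. Groups were compared with limma, to which every adjusted p-value below belongs. A gene was called higher or lower at an adjusted p under 0.05 over all 45037 probe sets. The arrays correlated on average at 0.974 to 0.994 with the others of their group, and WT replicate 3 was the lowest. Of the deleted genes, Rbl1 was at 8.18 to 8.32 in WT, 4.42 to 5.12 in TKO and 4.0 to 4.99 in TKO-Ras MEFs. Rb1 was at 8.31 to 8.70 in WT, 7.51 to 7.74 in Rb1KO, 6.97 to 7.43 in TKO and 7.45 to 7.66 in TKO-Ras MEFs. Rbl2 went against one label, being at background (3.80 to 4.47) on the arrays labelled Rb1KO, against 7.54 to 7.90 in WT MEFs, 5.27 to 5.71 in TKO MEFs and 4.6 to 5.35 in TKO-Ras MEFs. Whether Rb1 was the only family member lost in the cells labelled Rb1KO was not tested, and every Rb1KO value below carries this limit. Which exons were deleted is not given in the sources used here, so a probe set that reads outside them may still give signal.

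Markers of the cells that could contribute inflammatory RNA were read on the same arrays. Of 12 macrophage and leukocyte markers, 5 had a mean above background in WT, 3 in Rb1KO, 4 in TKO and 6 in TKO-Ras MEFs, and their summed log2 level was 54.4 to 56.1, 54.2 to 55.2, 54.9 to 55.5 and 54.9 to 57.1. The defining leukocyte and macrophage markers Ptprc, Adgre1, Aif1, Tyrobp and Itgam were not above background in any group, while Csf1r, Fcer1g and Laptm5 were in every group, Lyz2 and Cd53 in WT and TKO-Ras MEFs, and Cd68 in TKO and TKO-Ras MEFs. Of the 12, only Cd68 was called higher in TKO than in WT MEFs (log2 difference 0.96, adjusted p = 0.0044). In Rb1KO against WT MEFs 1 of them was called lower (12.3% of all genes were). In TKO-Ras against TKO MEFs limma called 0 of them in either direction (3.19% of all genes were higher and 4.17% lower). At an unadjusted p under 0.05, where the share of all genes is not given here, 2 were higher and 1 lower. Of 8 endothelial markers only Kdr and Esam were above background in each group, with summed levels of 34.1 to 35.7 over all arrays, and Pecam1, Cdh5 and Tek were not. Of 10 fibroblast markers, 9 were above background in WT, 10 in Rb1KO, 9 in TKO and 8 in TKO-Ras MEFs. Their summed level was lower in the mutants, from 109.6 to 120.2 in WT to 104.1 to 105.5 in Rb1KO, 104.2 to 112.5 in TKO and 96.7 to 97.4 in TKO-Ras MEFs, and 5 of the 10 were called lower in TKO than in WT MEFs (9.9% of all genes were), 6 in Rb1KO than in WT MEFs (12.3%) and 5 in TKO-Ras than in TKO MEFs (4.17%). Dcn was called higher in TKO than in WT MEFs (log2 difference 2.20, adjusted p = 0.049). Of 6 epithelial markers, Epcam, Krt5, Krt8 and Krt19 were above background in each group, and the summed level was 30.7 to 33.7 in WT, 33.2 to 34.1 in Rb1KO, 33.6 to 34.3 in TKO and 35 to 36.1 in TKO-Ras MEFs. Krt8 and Cdh1, the latter below background, were called higher in TKO than in WT MEFs, and Krt8 and Krt19 in TKO-Ras than in WT MEFs. The part of these shifts in the results below was not tested, and in bulk RNA fewer cells of a type and less RNA per cell cannot be told apart.

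Neutrophil and monocyte attractants were among the genes higher in TKO than in WT MEFs, with Cxcl5 at least 195-fold higher and log2 differences of 3.90 for Ccl2, 3.82 for Cxcl1 and 2.95 for Ccl5, beside the NF-kB inhibitor Nfkbia (1.73) and the NF-kB subunit Relb (1.99). In TKO-Ras against TKO MEFs the log2 difference was -6.27 for Cxcl5, -4.76 for Cxcl1, -3.88 for Ccl7, -3.04 for the homeostatic chemokine Cxcl12 and -2.95 for the IL-1 antagonist Il1rn. Of the 42 measured members, 15 were called higher in TKO than in WT MEFs (35.7% of them, where 13.6% of all 18193 genes were called higher) and 2 were called lower (4.76%, where 9.9% of all genes were). In TKO-Ras against TKO MEFs 0 were called higher (3.19% of all genes were) and 14 were called lower (33.3% of them, where 4.17% of all genes were), and each of the 14 was at least 2-fold lower. At an unadjusted p under 0.05 limma gave 3 higher and 21 lower there. The share of all genes at that unadjusted threshold is not given here, so these 2 counts have no background beside them. The median log2 difference of the 42 was 0.34 in TKO against WT MEFs, beside 0.05 over all genes, and -0.29 in TKO-Ras against TKO MEFs, beside 0.04 over all genes. These comparisons share the TKO arrays and so are not independent of each other. The members were chosen with earlier results of these data known, so their shares do not come from an independent list.

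The other comparisons gave smaller shares. In Rb1KO against WT MEFs 8 members were called higher (19.0%, where 15.6% of all genes were) and 4 lower (9.52%, where 12.3% were), which is near the background of that comparison. TKO against Rb1KO MEFs gave 9 members higher (21.4%, where 5.92% of all genes were) and 2 lower (4.76%, where 3.63% were). In TKO-Ras against WT MEFs Cxcl5, Il33 and Cd14 were higher (3 members, 7.14%, where 19.4% of all genes were) and Cxcl12, Ptges, Tnfaip3 and Tlr2 lower (4 members, 9.52%, where 14.3% were), so that the share of members called was below the background in both directions. Of the 42 members, 7 lay at or below background on every array and 35 were above it on at least 1 array.

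**Figure D1:**
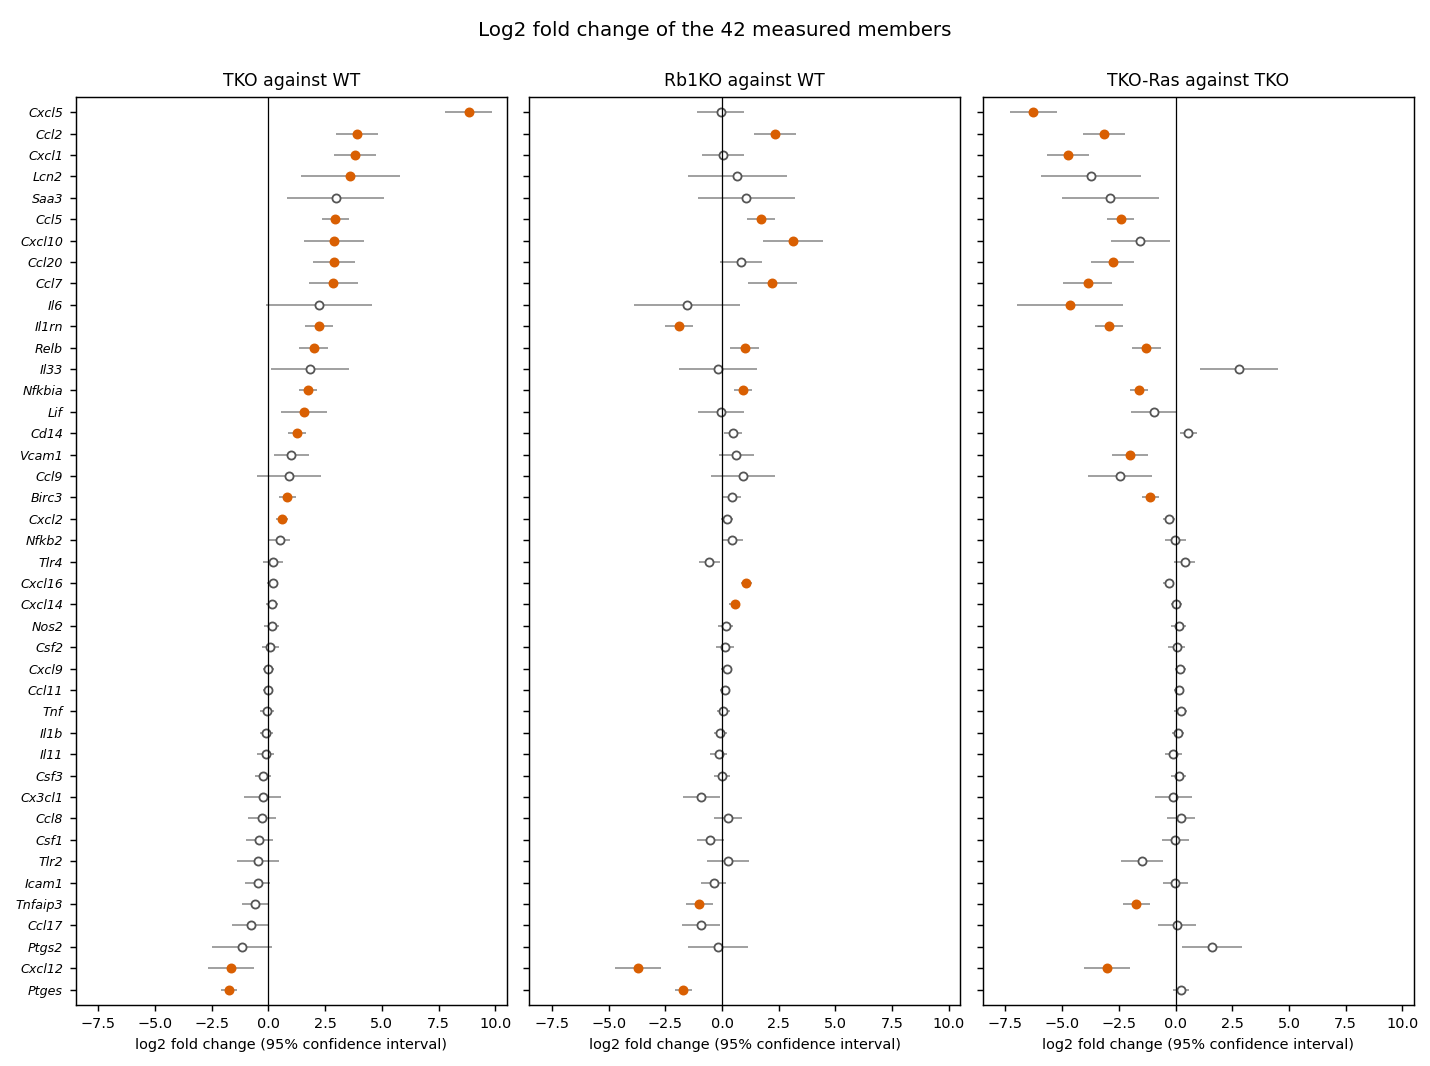
Log2 fold change with its 95% confidence interval for each of the 42 measured genes in 3 comparisons, ordered by TKO against WT, with filled points for genes called at an adjusted p under 0.05. Of the filled points 15 lie to the right and 2 to the left in TKO against WT, 8 and 4 in Rb1KO against WT, and 0 and 14 in TKO-Ras against TKO. Where the lower group is below background, as for Cxcl5 in TKO against WT, the plotted value is fitted and does not measure the fold.

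Promoter windows of RefSeq (GRCm38.p6) were found for 32 of the 45 genes, and the 250 bases before each start were searched on both strands for the letters of the NF-kB decamer and, as a comparison, of the AP-1 site TGANTCA, with overlapping matches of a motif merged into 1. The decamer was found in 14 of the 40 windows of these genes (35%), against 2382 of 32851 windows of all genes (7.25%), and the AP-1 letters in 8 of 40 (20.0%) against 2217 of 32851 (6.75%). The genes were listed from classes already known for decamer sites, so the decamer share describes the list and not the arrays. The 14 windows belong to 12 genes, since Nfkb2 has 3 of them, and no match of one motif overlapped one of the other in them. The 12 genes were Ccl9, Ccl20, Csf1, Cxcl1, Cxcl2, Cxcl10, Il6, Lif, Nfkb2, Nfkbia, Tlr2 and Tnfaip3. Ccl20, Cxcl1, Cxcl2 (below background on every array), Cxcl10, Lif and Nfkbia were called higher in TKO than in WT MEFs, and the others were not. Among the genes with windows but no decamer, Birc3, Il1rn and Lcn2 were called higher, and the other measured ones were not. The 13 genes without a window were not searched. They include Cxcl5, Ccl2, Ccl5, Ccl7, Relb and Cd14, which were called higher in TKO than in WT MEFs. Called higher were 35.7% of the measured members and 13.6% of all genes. Whether the decamer goes with these calls was not tested. A match is a description of the letters, not of binding. The 180 bases before the start are shown for 5 of the genes that were called higher in TKO MEFs and hold the decamer, and for Lcn2, which was called higher and holds none in its window. Sequences are 5' to 3' on the gene's own strand, and capitals mark the decamer letters.
Cxcl1, chr5:90891065-90891244, plus strand: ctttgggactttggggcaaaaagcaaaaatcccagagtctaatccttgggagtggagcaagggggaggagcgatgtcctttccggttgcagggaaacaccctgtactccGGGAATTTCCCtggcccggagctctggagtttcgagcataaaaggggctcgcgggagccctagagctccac
Ccl20, chr1:83116586-83116765, plus strand: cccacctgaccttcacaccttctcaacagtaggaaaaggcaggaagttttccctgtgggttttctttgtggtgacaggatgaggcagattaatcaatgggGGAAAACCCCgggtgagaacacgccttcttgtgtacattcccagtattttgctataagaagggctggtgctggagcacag
Cxcl10, chr5:92348890-92349069, minus strand: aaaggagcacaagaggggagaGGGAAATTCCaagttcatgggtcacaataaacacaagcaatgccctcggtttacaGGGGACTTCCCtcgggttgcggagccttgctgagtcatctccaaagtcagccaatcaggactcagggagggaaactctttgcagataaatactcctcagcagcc
Nfkbia, chr12:55492648-55492827, minus strand: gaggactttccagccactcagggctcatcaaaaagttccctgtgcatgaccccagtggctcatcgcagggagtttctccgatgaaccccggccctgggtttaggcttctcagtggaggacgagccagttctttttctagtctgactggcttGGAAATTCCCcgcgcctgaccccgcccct
Lif, chr11:4257388-4257567, plus strand: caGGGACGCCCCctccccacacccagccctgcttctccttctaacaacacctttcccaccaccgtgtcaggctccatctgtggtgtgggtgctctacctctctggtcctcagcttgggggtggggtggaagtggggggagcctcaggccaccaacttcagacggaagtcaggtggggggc
Lcn2, chr2:32387740-32387919, minus strand: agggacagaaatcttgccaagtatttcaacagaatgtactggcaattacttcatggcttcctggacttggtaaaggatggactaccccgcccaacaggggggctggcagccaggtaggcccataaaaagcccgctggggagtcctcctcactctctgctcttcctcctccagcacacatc
In these windows the first base of the decamer lies 71 bases before the start in Cxcl1, 80 in Ccl20, 29 in Nfkbia and 178 in Lif, and Cxcl10 holds 2 of them, at 159 and 104 bases before its start.

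All 3 neutrophil chemokines were called higher in TKO than in WT MEFs (13.6% of all genes were). Cxcl5 and Cxcl1, 2 of them, were called lower in TKO-Ras than in TKO MEFs (4.17%). Cxcl5, a ligand of the neutrophil receptor CXCR2, measured 3.5, 3.28 and 4.92 on the WT arrays and 4.27, 4.02 and 3.21 on the Rb1KO arrays. It measured 12.13, 13.14 and 12.95 on the TKO arrays and 5.72, 7.02 and 6.68 on the TKO-Ras arrays. It was at background on each WT and Rb1KO array and was high only on the TKO arrays, with the TKO-Ras arrays between. In TKO MEFs it was at least 195-fold higher than in WT MEFs (adjusted p = 5.9e-07) and at least 195-fold higher than in Rb1KO MEFs (adjusted p = 8.1e-07), both computed against the background level. TKO-Ras MEFs held 77.0-fold less of it than TKO MEFs (log2 difference -6.27 ± 0.47, SE, adjusted p = 2.4e-05) and at least 2.53-fold more than WT MEFs (adjusted p = 0.0018).

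Cxcl1, another CXCR2 ligand whose promoter is shown above, measured 9.32, 8.74 and 9.40 on the WT arrays and 10.02, 8.60 and 9.03 on the Rb1KO arrays. It measured 12.05, 13.52 and 13.34 on the TKO arrays and 7.75, 8.43 and 8.47 on the TKO-Ras arrays. The 3 TKO arrays stood above all the others, and the Rb1KO arrays overlapped the WT arrays. Cxcl1 was 14.1-fold higher in TKO than in WT MEFs (log2 difference 3.82 ± 0.42, SE, adjusted p = 9.4e-05) and 27.0-fold lower in TKO-Ras than in TKO MEFs (-4.76, adjusted p = 8.5e-05). In Rb1KO against WT MEFs its log2 difference was 0.06, with a 95% confidence interval of -0.87 to 0.99, and TKO against Rb1KO MEFs differed by 3.75 (adjusted p = 2.6e-04). All 3 probe sets of Cxcl1 were higher in TKO than in WT MEFs, by 2.72 to 4.09 on the log2 scale. Cxcl2, the third neutrophil chemokine, was below background on every array (3.0 to 3.85) although its log2 difference of 0.60 in TKO against WT MEFs passed the test (adjusted p = 0.0038), so no level or fold is given for it.

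Among the chemokines of monocytes and lymphocytes, 5 of 12 were called higher in TKO than in WT MEFs (13.6% of all genes were). In Rb1KO against WT MEFs 5 of 12 were called higher (15.6%). None was called lower in either, where 9.9% and 12.3% of all genes were. Ccl2, the main attractant of monocytes, measured 9.22, 7.95 and 8.11 on the WT arrays and 11.18, 10.83 and 10.24 on the Rb1KO arrays. It measured 11.47, 12.87 and 12.64 on the TKO arrays and 9.07, 8.77 and 9.67 on the TKO-Ras arrays. Its Rb1KO arrays lay between the WT and the TKO arrays without overlap, and 2 of the 3 TKO-Ras arrays lay within the range of the WT arrays. Ccl2 was 14.9-fold higher in TKO than in WT MEFs (log2 difference 3.90 ± 0.42, SE, adjusted p = 8.4e-05), higher by 2.33 in Rb1KO than in WT MEFs (adjusted p = 0.0021) and 8.92-fold lower in TKO-Ras than in TKO MEFs (adjusted p = 0.0013). TKO-Ras against WT MEFs gave a log2 difference of 0.74, with a 95% confidence interval of -0.19 to 1.67.

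Ccl7, which shares the receptor CCR2 with Ccl2, measured 8.49, 6.79 and 7.46 on the WT arrays and 9.94, 9.98 and 9.48 on the Rb1KO arrays. It measured 9.55, 11.26 and 10.52 on the TKO arrays and 6.29, 6.12 and 7.28 on the TKO-Ras arrays. Both knockouts stood above WT MEFs, and the TKO-Ras arrays reached the lowest values. The log2 differences were 2.86 ± 0.49 (SE) in TKO against WT (adjusted p = 0.0016), 2.22 in Rb1KO against WT (adjusted p = 0.0064) and -3.88 in TKO-Ras against TKO MEFs (adjusted p = 8.5e-04). Ccl5, which draws T cells and monocytes, measured 6.36, 6.14 and 6.86 on the WT arrays and 8.62, 7.72 and 8.19 on the Rb1KO arrays. It measured 8.94, 9.80 and 9.47 on the TKO arrays and 6.77, 6.93 and 7.25 on the TKO-Ras arrays. WT, Rb1KO and TKO arrays formed 3 steps that did not overlap. TKO exceeded WT MEFs by 2.95 ± 0.27 (SE, adjusted p = 2.9e-05), Rb1KO exceeded WT MEFs by 1.72 (adjusted p = 8.8e-04), and the log2 difference was -2.42 in TKO-Ras against TKO MEFs (adjusted p = 4.1e-04). The step from Rb1KO to TKO MEFs was 1.57 for Ccl2 (adjusted p = 0.047) and 1.23 for Ccl5 (adjusted p = 0.019).

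Ccl20, the ligand of CCR6 on lymphocytes and dendritic cells, measured 5.26, 5.20 and 5.25 on the WT arrays and 6.72, 5.56 and 5.93 on the Rb1KO arrays. It measured 6.95, 8.37 and 9.04 on the TKO arrays and 5.49, 5.34 and 5.21 on the TKO-Ras arrays. WT and TKO-Ras arrays lay just above background and the TKO arrays were spread widely. It was higher by 2.88 ± 0.43 (SE) in TKO than in WT MEFs (adjusted p = 7.1e-04), and by 2.05 in TKO than in Rb1KO MEFs (adjusted p = 0.013), and the log2 difference in TKO-Ras against TKO MEFs was -2.78 (adjusted p = 0.0033). Cxcl10, an interferon-responsive chemokine of T cells whose window holds 2 decamers, measured 5.10, 4.22 and 6.75 on the WT arrays and 9.08, 8.02 and 8.36 on the Rb1KO arrays. It measured 8.19, 8.35 and 8.21 on the TKO arrays and 6.93, 5.60 and 7.57 on the TKO-Ras arrays. Rb1KO and TKO arrays lay together above the WT arrays, among which replicate 3 was the highest. The fitted log2 difference was 2.89 ± 0.60 (SE) in TKO against WT (adjusted p = 0.0055) and 3.13 in Rb1KO against WT MEFs (adjusted p = 0.0028), and became 3.59 and 3.83 without WT replicate 3. Only 1 of 3 WT arrays, replicate 3, was above background, so these values do not measure the size of the change. TKO-Ras against TKO MEFs differed by -1.55, which did not pass (adjusted p = 0.18).

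Cxcl16, a membrane-bound ligand of CXCR6, measured 7.18, 7.11 and 7.17 on the WT arrays and 8.30, 8.25 and 8.12 on the Rb1KO arrays. It measured 7.14, 7.25 and 7.60 on the TKO arrays and 7.04, 7.06 and 6.98 on the TKO-Ras arrays. Only the Rb1KO arrays stood apart. It was 2.10-fold higher in Rb1KO than in WT MEFs (log2 difference 1.07 ± 0.12, SE, adjusted p = 6.3e-05) and lower in TKO than in Rb1KO MEFs (log2 difference -0.89, adjusted p = 6.9e-04). A dimmer probe set of Cxcl16 gave 2.02 for Rb1KO against WT MEFs and was also called lower in TKO-Ras than in TKO MEFs (-1.43, adjusted p = 0.0039), where the brighter one was not called (-0.30). Of the other members of this group, Ccl8 (4.55 to 5.89), Ccl9 (5.17 to 9.66), Ccl17 (5.70 to 7.75) and Cx3cl1 (7.31 to 9.35) passed in no comparison, and Ccl11 and Cxcl9 were below background on every array. Ccl9, a macrophage chemokine with a decamer in its window, had a log2 difference of -2.45 in TKO-Ras against TKO MEFs (adjusted p = 0.051). That call was reached under 7 alternatives, among them without TKO replicate 1 (-2.91), and another, dimmer probe set of Ccl9 gave -3.12 (adjusted p = 0.024).

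**Figure D2:**
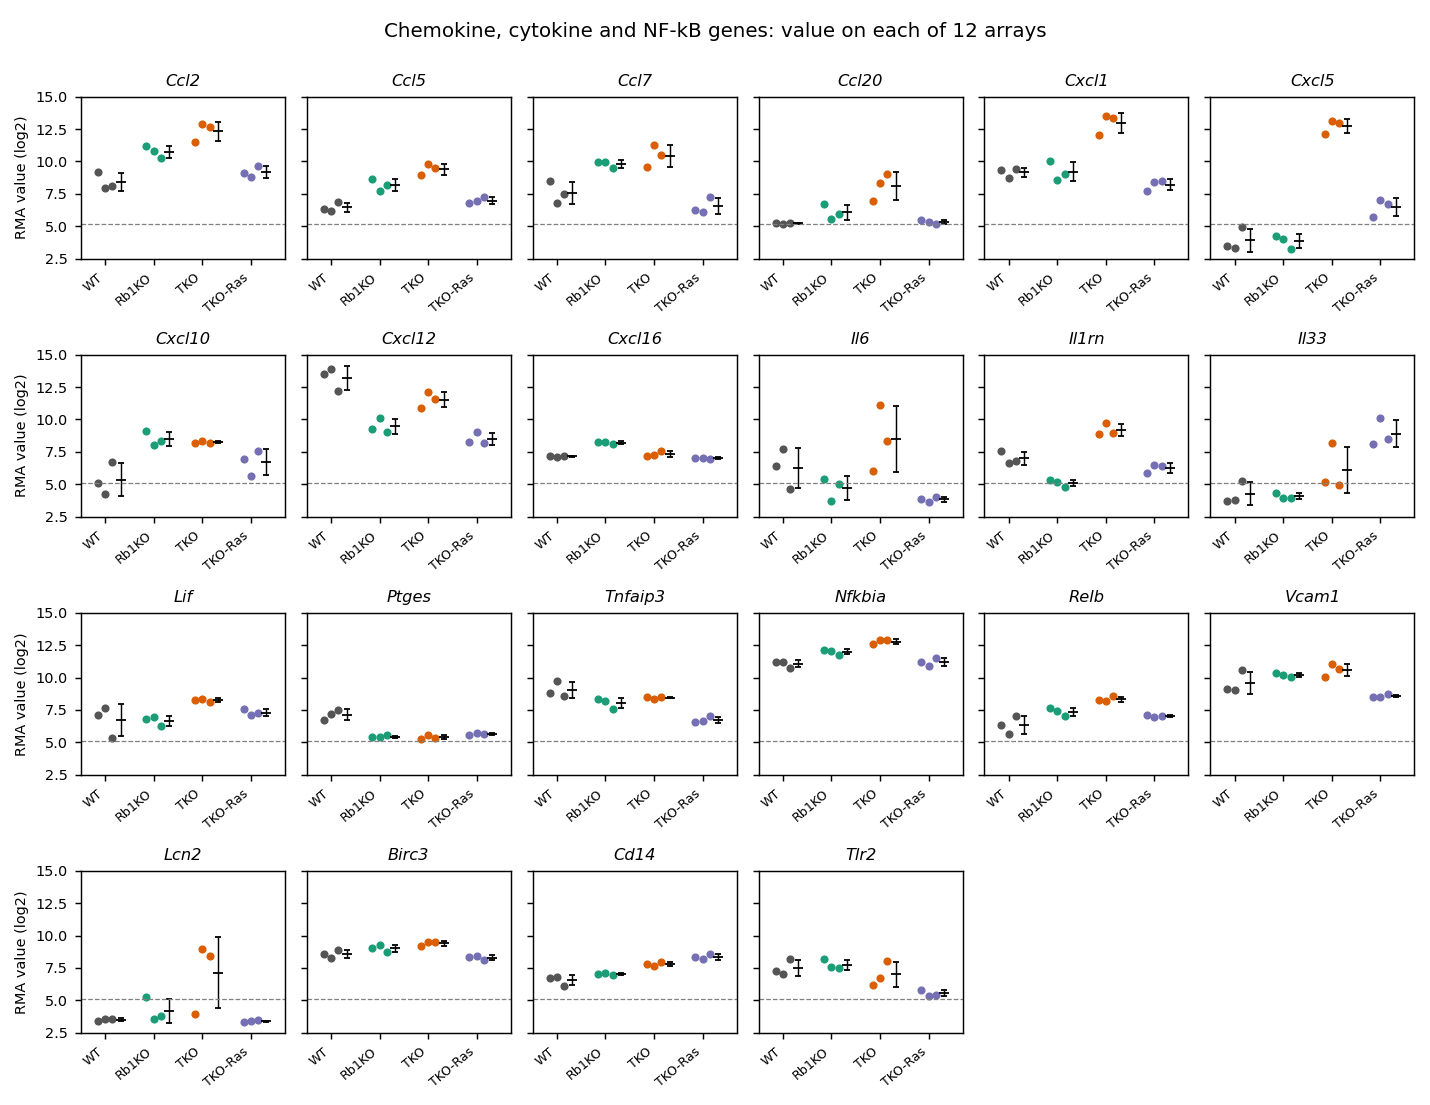
Log2 RMA value on each of the 12 arrays is shown for 22 genes that passed at 2-fold or more in at least 1 comparison with the higher group above background. Bars give the mean and SD of 3 arrays and the dashed line is the background level of 5.13. Cxcl5 goes from background in WT and Rb1KO to 12.13 to 13.14 in TKO MEFs and lies between 5.72 and 7.02 in TKO-Ras MEFs.

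The homeostatic chemokines moved differently. Cxcl12, the CXCR4 ligand that fibroblasts and other stromal cells release without stimulation, measured 13.49, 13.92 and 12.16 on the WT arrays and 9.28, 10.10 and 9.02 on the Rb1KO arrays. It measured 10.90, 12.12 and 11.60 on the TKO arrays and 8.26, 9.04 and 8.19 on the TKO-Ras arrays. It was highest in WT MEFs, and the Rb1KO and TKO-Ras arrays were the lowest. The log2 difference was -3.73 ± 0.46 (SE) in Rb1KO against WT (adjusted p = 1.7e-04), -1.65 in TKO against WT (adjusted p = 0.027), -3.04 in TKO-Ras against TKO (adjusted p = 0.0030) and -4.69 in TKO-Ras against WT MEFs (adjusted p = 2.5e-05). The difference between TKO and Rb1KO MEFs was 2.08 (adjusted p = 0.019). The TKO against WT call was lost without WT replicate 1, WT replicate 2, TKO replicate 1 or TKO replicate 3, with values of -1.68 to -1.29, and another probe set of Cxcl12 gave -0.39 there (adjusted p = 0.72). Cxcl12 fell together with the fibroblast markers above, and their part in its result was not tested. Cxcl14, a chemokine of epithelial and stromal cells, lay between 4.36 and 5.19, with 2 Rb1KO arrays above background and no others, and was at least 1.02-fold higher in Rb1KO than in WT MEFs (adjusted p = 0.0035). Another probe set of Cxcl14 was at 6.07 to 6.84 on the Rb1KO arrays and below background in the other groups (adjusted p = 2.5e-06 for Rb1KO against WT MEFs).

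Of 9 cytokines and colony-stimulating factors, 1 was called higher in TKO than in WT MEFs (13.6% of all genes were). Lif, a cytokine of the IL-6 family that holds stem cells undifferentiated, measured 7.11, 7.68 and 5.30 on the WT arrays and 6.79, 6.93 and 6.24 on the Rb1KO arrays. It measured 8.28, 8.36 and 8.10 on the TKO arrays and 7.56, 7.09 and 7.24 on the TKO-Ras arrays. The TKO arrays were the highest and closest together, and WT replicate 3 was the lowest of all. Its log2 difference in TKO against WT MEFs was 1.56 ± 0.46 (SE, adjusted p = 0.035), which became 0.86 without WT replicate 3 and was no longer called without any one of the TKO arrays (1.5 to 1.63). Il6, the cytokine that drives the acute-phase response, measured 6.38, 7.71 and 4.67 on the WT arrays and 5.44, 3.71 and 5.01 on the Rb1KO arrays. It measured 6.04, 11.09 and 8.33 on the TKO arrays and 3.89, 3.62 and 4.02 on the TKO-Ras arrays. The TKO arrays were spread from 6.04 to 11.09 and overlapped the WT arrays, while each TKO-Ras array was at background. TKO against WT MEFs gave 2.23 ± 1.07 (SE), which did not pass (adjusted p = 0.18), and passed without TKO replicate 1 (3.46). In TKO-Ras MEFs Il6 was at least 10.2-fold lower than in TKO MEFs (adjusted p = 0.027), a call lost without TKO replicate 2 (fitted difference -3.34), TKO replicate 3 (-4.72) or any one TKO-Ras array (-4.73 to -4.53), and at -5.87 without TKO replicate 1.

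Il33, an IL-1 family alarmin of stromal cells, measured 3.72, 3.79 and 5.28 on the WT arrays and 4.35, 3.95 and 3.91 on the Rb1KO arrays. It measured 5.16, 8.17 and 4.98 on the TKO arrays and 8.11, 10.11 and 8.51 on the TKO-Ras arrays. It was at or near background on the WT and Rb1KO arrays, high on 1 of 3 TKO arrays and high on every TKO-Ras array. Il33 was called higher in TKO-Ras than in WT MEFs (fitted log2 difference 4.65 ± 0.79, SE, adjusted p = 0.0011, and 4.05 without TKO-Ras replicate 2), and no fold is given since 2 of 3 WT arrays were below background. TKO-Ras against TKO MEFs gave 2.80 (adjusted p = 0.065) and passed without TKO replicate 2 (3.84) and with dim probe sets filtered out. Il1rn encodes the secreted antagonist of the IL-1 receptor and measured 7.54, 6.65 and 6.78 on the WT arrays and 5.30, 5.15 and 4.81 on the Rb1KO arrays. It measured 8.92, 9.71 and 8.98 on the TKO arrays and 5.84, 6.5 and 6.44 on the TKO-Ras arrays. TKO arrays lay above, and Rb1KO arrays below, the WT arrays, without overlap. The log2 difference was 2.21 ± 0.28 (SE) in TKO against WT (adjusted p = 2.4e-04), -1.91 in Rb1KO against WT (adjusted p = 5.2e-04), 4.12 in TKO against Rb1KO (adjusted p = 5.5e-06) and -2.95 in TKO-Ras against TKO MEFs (adjusted p = 1.4e-04). The Rb1KO mean of Il1rn (5.08) was below background, so -1.91 and 4.12 are fitted values that do not measure the size. All 3 probe sets of Il1rn were higher in TKO than in WT MEFs. The inducers Tnf (4.87 to 5.41) and Il1b (4.64 to 5.01) stayed near or below background on every array, as did Il11 (4.95 to 5.54), Csf2 and Csf3, while Csf1, the macrophage growth factor, was high in each group (10.17 to 11.47). None of these 6 passed in any comparison.

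Among the 5 measured NF-kB subunits and inhibitors, 3 were called higher in TKO than in WT MEFs (13.6% of all genes were). In TKO-Ras against TKO MEFs 4 were called lower (4.17%). Nfkbia, the inhibitor IkB-alpha whose promoter is shown above, measured 11.21, 11.22 and 10.73 on the WT arrays and 12.13, 12.03 and 11.75 on the Rb1KO arrays. It measured 12.60, 12.86 and 12.88 on the TKO arrays and 11.17, 10.89 and 11.49 on the TKO-Ras arrays. WT, Rb1KO and TKO arrays again formed 3 steps without overlap, and the TKO-Ras arrays overlapped the WT arrays. The log2 difference was 1.73 ± 0.18 (SE) in TKO against WT (adjusted p = 6.4e-05), 0.92 in Rb1KO against WT (adjusted p = 0.0033), 0.81 in TKO against Rb1KO (adjusted p = 0.019) and -1.59 in TKO-Ras against TKO MEFs (adjusted p = 4.3e-04). All 5 probe sets of Nfkbia were higher in TKO than in WT MEFs, by 1.73 to 2.05. TKO-Ras against WT MEFs gave 0.13, with a 95% confidence interval of -0.26 to 0.53.

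Relb, the Rel subunit of the non-canonical NF-kB pathway, measured 6.33, 5.62 and 7.06 on the WT arrays and 7.62, 7.41 and 6.99 on the Rb1KO arrays. It measured 8.24, 8.21 and 8.54 on the TKO arrays and 7.13, 6.97 and 7.01 on the TKO-Ras arrays. The TKO arrays were the highest and the WT arrays the most spread. It was higher by 1.99 ± 0.29 (SE) in TKO than in WT MEFs (adjusted p = 5.9e-04), and by 1.01 in Rb1KO than in WT MEFs (adjusted p = 0.026), where the groups overlapped and the call was lost without WT replicate 1 (1.0), WT replicate 2 (0.65), Rb1KO replicate 1 (0.87) or Rb1KO replicate 2 (0.97). In TKO-Ras against TKO MEFs it was -1.29 (adjusted p = 0.023), which was lost without any one of the 6 arrays (-1.35 to -1.19). Birc3, an inhibitor of apoptosis that acts in TNF receptor signalling, measured 8.54, 8.29 and 8.89 on the WT arrays and 9.03, 9.26 and 8.73 on the Rb1KO arrays. It measured 9.20, 9.54 and 9.48 on the TKO arrays and 8.34, 8.45 and 8.13 on the TKO-Ras arrays. TKO arrays lay above the WT and the TKO-Ras arrays. The log2 difference was 0.83 ± 0.18 (SE) in TKO against WT (adjusted p = 0.0064) and -1.11 in TKO-Ras against TKO MEFs (adjusted p = 0.0040), and a dimmer probe set of Birc3, below background in each group, showed neither difference.

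Tnfaip3, which encodes the ubiquitin-editing inhibitor A20, measured 8.80, 9.70 and 8.61 on the WT arrays and 8.32, 8.22 and 7.58 on the Rb1KO arrays. It measured 8.48, 8.38 and 8.51 on the TKO arrays and 6.55, 6.65 and 7.0 on the TKO-Ras arrays. Unlike Nfkbia it was highest in WT MEFs. It was called lower in Rb1KO than in WT MEFs (log2 difference -1.0 ± 0.27, SE, adjusted p = 0.020). That call was lost without Rb1KO replicate 3 (-0.77), without moderation of the variance, with only the groups compared in the fit and with all probe sets averaged. Tnfaip3 was also called lower in TKO-Ras than in TKO MEFs (-1.72, adjusted p = 0.0035) and than in WT MEFs (-2.30, adjusted p = 8.2e-05). A dimmer probe set gave -0.24 (adjusted p = 0.50) and -0.49 (adjusted p = 0.048) in these, and -0.14 (adjusted p = 0.60) in Rb1KO against WT MEFs. By the brightest probe set TKO against WT MEFs gave -0.58, which did not pass (adjusted p = 0.17). Nfkb2, the p100 precursor, lay between 7.36 and 8.48 and passed in no comparison.

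Of the prostaglandin and nitric oxide enzymes, Ptges, which makes prostaglandin E2, measured 6.73, 7.18 and 7.52 on the WT arrays and 5.41, 5.39 and 5.53 on the Rb1KO arrays. It measured 5.28, 5.56 and 5.35 on the TKO arrays and 5.58, 5.72 and 5.64 on the TKO-Ras arrays. Each mutant array was below each WT array. The log2 difference against WT MEFs was -1.74 ± 0.17 (SE) in TKO (adjusted p = 3.6e-05), -1.70 in Rb1KO (adjusted p = 3.4e-05) and -1.5 in TKO-Ras MEFs (adjusted p = 5.9e-05). These values are of the brightest probe set. A dimmer probe set of Ptges passed only in TKO against WT MEFs (fitted difference -1.06, adjusted p = 0.038). Another passed in no comparison, with -0.44 in TKO, -0.26 in Rb1KO and -0.15 in TKO-Ras against WT MEFs. Ptgs2, the inducible cyclooxygenase that feeds Ptges, was high in each group (9.68 to 12.63), and its log2 difference of -1.18 in TKO against WT MEFs did not pass (adjusted p = 0.21), but passed without WT replicate 3 (-1.98) and with array weights. Nos2, the inducible nitric oxide synthase, stayed at 4.96 to 5.50 and passed in no comparison.

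Vcam1, an adhesion molecule for leukocytes, measured 9.13, 9.04 and 10.58 on the WT arrays and 10.38, 10.21 and 10.07 on the Rb1KO arrays. It measured 10.08, 11.01 and 10.68 on the TKO arrays and 8.53, 8.51 and 8.69 on the TKO-Ras arrays. The TKO-Ras arrays were the lowest and closest together. It differed by -2.01 ± 0.35 (SE) in TKO-Ras against TKO MEFs (adjusted p = 0.0067), where the 3 probe sets gave -2.01 to -1.47, and 1.01 in TKO against WT MEFs (adjusted p = 0.069), which passed without WT replicate 3 (1.51) or TKO replicate 1 (1.26). Icam1 was below background on every array. Cd14, the coreceptor for bacterial lipopolysaccharide, measured 6.75, 6.78 and 6.13 on the WT arrays and 7.05, 7.13 and 6.94 on the Rb1KO arrays. It measured 7.81, 7.65 and 7.94 on the TKO arrays and 8.35, 8.16 and 8.59 on the TKO-Ras arrays. The group means stepped up from WT through Rb1KO and TKO to TKO-Ras, without overlap between the arrays of any of these groups. Cd14 exceeded WT MEFs by 1.25 ± 0.17 (SE) in TKO (adjusted p = 4.6e-04) and by 1.82 in TKO-Ras MEFs (adjusted p = 2.1e-05), while the step from TKO to TKO-Ras MEFs, 0.56, did not pass (adjusted p = 0.092). Tlr2, a receptor for bacterial lipoproteins, measured 7.27, 7.01 and 8.17 on the WT arrays and 8.16, 7.57 and 7.48 on the Rb1KO arrays. It measured 6.22, 6.76 and 8.06 on the TKO arrays and 5.81, 5.36 and 5.45 on the TKO-Ras arrays. The TKO-Ras arrays were below all the others, and its log2 difference was -1.95 ± 0.42 (SE) in TKO-Ras against WT MEFs (adjusted p = 0.0051) and -1.47 in TKO-Ras against TKO MEFs, which did not pass (adjusted p = 0.070). It passed without TKO replicate 1 (-1.87) and with array weights. Tlr4, the receptor for bacterial lipopolysaccharide, lay between 6.86 and 8.32 and passed in no comparison by its brightest probe set. Of its dimmer probe sets, one passed in TKO-Ras against WT MEFs (0.63, adjusted p = 0.019) and another in Rb1KO against WT MEFs (-0.82, adjusted p = 0.022).

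The acute-phase genes differed widely among the TKO arrays. Lcn2, an iron-carrier-binding protein of the innate response, measured 3.39, 3.57 and 3.58 on the WT arrays and 5.22, 3.53 and 3.79 on the Rb1KO arrays. It measured 3.97, 9.0 and 8.40 on the TKO arrays and 3.37, 3.39 and 3.45 on the TKO-Ras arrays. TKO replicate 1 was below background with the WT arrays, and the other two TKO arrays were far above it. In TKO MEFs Lcn2 was at least 3.97-fold above WT MEFs (adjusted p = 0.025), a mean in which 2 of 3 TKO arrays measured it above background. The call was lost without WT replicate 1, WT replicate 2, TKO replicate 2 or TKO replicate 3 (fitted differences of 2.68 to 3.64), and the fitted difference became 5.19 without TKO replicate 1. These fitted values are taken against WT arrays below background and do not measure the size of the change. Saa3, an acute-phase apolipoprotein, measured 5.09, 5.22 and 5.26 on the WT arrays and 7.87, 5.44 and 5.45 on the Rb1KO arrays. It measured 5.36, 9.12 and 9.96 on the TKO arrays and 5.22, 5.23 and 5.34 on the TKO-Ras arrays. It showed the same split of the TKO arrays and 1 higher Rb1KO array, and its log2 difference of 2.96 in TKO against WT MEFs did not pass (adjusted p = 0.055). It passed without TKO replicate 1 (4.35), with array weights, with arrays centred on their median and with dim probe sets filtered out. In TKO-Ras MEFs both genes were near or below background on every array, but neither passed against TKO MEFs. Lcn2 was at least 3.97-fold lower there (adjusted p = 0.054) and passed without TKO replicate 1, with array weights and with dim probe sets filtered out. It also passed with probe sets averaged per gene, which leaves its only probe set as it is and changes the set of tests. Saa3 had a log2 difference of -2.88 (adjusted p = 0.12) and passed without TKO replicate 1 (-4.28).

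TKO and Rb1KO MEFs were also set directly against each other. Beside the genes given above, Cd14 was higher in TKO MEFs (log2 difference 0.76, adjusted p = 0.022) and Cxcl14 at least 1.02-fold lower (adjusted p = 0.0498). The other probe set of Cxcl14, which lay further above background on the Rb1KO arrays, was also called lower (adjusted p = 4.7e-06). The calls of Cxcl1, Cxcl5, Cxcl16 and Il1rn were kept without any one array of these groups. Each of the other calls was lost with some single array left out, which also lowers the number of arrays in the test. Each was also lost on all arrays without moderation of the variance. Ccl2 was lost without any array but TKO replicate 1 (1.30 to 1.79), with limma-trend and without moderation of the variance, Cd14 without any but TKO replicate 2 (0.69 to 0.81), and the brightest probe set of Cxcl14 without any of the 6 (fitted differences of -0.45 to -0.38). Leaving out Rb1KO replicate 2 or TKO replicate 2 ended the calls of Ccl5 (1.0 and 1.04), Ccl20 (1.79 and 1.92) and Nfkbia (0.84 and 0.77). Leaving out Rb1KO replicate 3 ended those of Ccl5 (1.24), Ccl20 (1.98), Nfkbia (0.70) and Cxcl12 (1.85). Without TKO replicate 3 Ccl5 (1.20), Nfkbia (0.76) and Cxcl12 (2.05) were lost, and Cxcl12 was lost without Rb1KO replicate 1 (1.98) or TKO replicate 2 (1.78) as well. Il6, which was not called here (3.77, adjusted p = 0.058), passed without TKO replicate 1 (4.99), as did Lcn2 (4.51) and Saa3 (3.29).

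TKO replicate 1 was the lowest TKO array for more of the members than of the genes as a whole. It was the lowest of the 3 for 11 of the 15 members called higher in TKO than in WT MEFs (73.3%), against 22.2% of the 2472 genes called higher in this comparison. Among members with a TKO mean above background it was the lowest for 22 of 32 (68.8%), against 29.6% of 11993 genes. TKO replicate 2 was the highest for 10 of the 15. Replicate 1 correlated with its group as the other TKO arrays did, at a mean of 0.992. The count of members called higher in TKO than in WT MEFs stayed at 13 to 17 when any one array of these groups was left out. Lcn2 was the member of the 15 in which these arrays lay farthest apart.

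**Figure D3:**
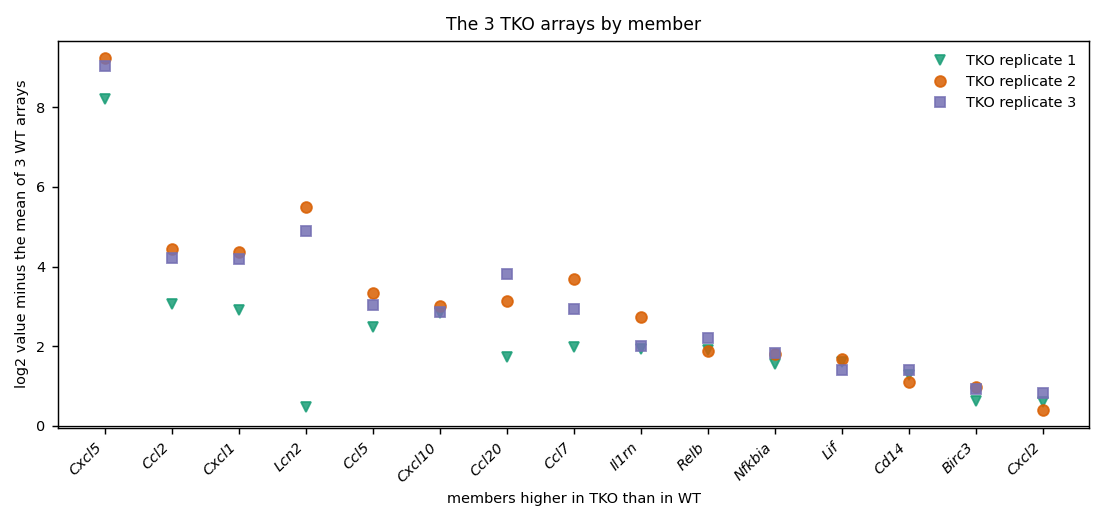
The value of each TKO array minus the mean of the 3 WT arrays, on the log2 scale, for the 15 genes called higher in TKO than in WT, with a symbol for each TKO array. TKO replicate 1 is the lowest symbol for 11 of the 15 genes, with the widest gap in Lcn2.

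From 7 lists, also chosen with earlier results of these data known, 157 other genes of the pathway were taken, of which 142 were measured. Of these, 23 were called higher and 8 lower in TKO than in WT MEFs (16.2% and 5.63%, beside the 13.6% and 9.9% of all genes), and 2 higher and 16 lower in TKO-Ras than in TKO MEFs (1.41% and 11.3%, beside 3.19% and 4.17%). Their median log2 differences were 0.07 and -0.01, beside 0.05 and 0.04 over all genes. In Rb1KO against WT MEFs 12 were higher and 16 lower (8.45% and 11.3%, beside 15.6% and 12.3%).

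Of 18 other NF-kB core genes and regulators, 6 were higher and 2 lower in TKO than in WT MEFs (13.6% and 9.9% of all genes were). In TKO-Ras against TKO MEFs 1 was higher and 5 lower (3.19% and 4.17%). Bcl3, a nuclear IkB protein that works with p50 and p52, measured 6.72, 6.58 and 7.46 on the WT arrays and 7.44, 6.79 and 7.52 on the Rb1KO arrays. It measured 8.15, 8.96 and 9.07 on the TKO arrays and 6.17, 6.48 and 5.85 on the TKO-Ras arrays. The TKO arrays were the highest and the TKO-Ras arrays the lowest, with log2 differences of 1.81 in TKO against WT (adjusted p = 0.0016) and -2.56 in TKO-Ras against TKO MEFs (adjusted p = 6.1e-04). Nfkbie, the inhibitor IkB-epsilon, measured 7.68, 6.95 and 8.04 on the WT arrays and 8.73, 8.40 and 7.72 on the Rb1KO arrays. It measured 9.24, 9.13 and 9.42 on the TKO arrays and 7.75, 7.31 and 7.69 on the TKO-Ras arrays. It was higher in TKO than in WT MEFs by 1.71 (adjusted p = 0.0015) and its log2 difference in TKO-Ras against TKO MEFs was -1.68 (adjusted p = 0.0057). The adaptor Traf2 was higher by 1.07 in TKO than in WT MEFs (adjusted p = 3.6e-05), whereas Ikbkg, the regulatory subunit of the IkB kinase, had a log2 difference of -1.10 (adjusted p = 0.012), and Nfkbiz, another nuclear IkB protein, was lower in TKO-Ras than in TKO MEFs (-1.97, adjusted p = 0.0057).

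Of 24 receptors and adaptors of TNF, IL-1 and Toll-like signalling, 1 was higher and 2 lower in TKO than in WT MEFs (13.6% and 9.9% of all genes were). In TKO-Ras against TKO MEFs 0 were called in either direction at an adjusted p under 0.05 (3.19% and 4.17%). At an unadjusted p under 0.05 limma gave 2 higher and 3 lower there, a threshold at which the share of all genes is not given here. Tlr3, a receptor for double-stranded RNA (log2 difference -2.01, adjusted p = 8.6e-05), and Il1rap, the shared subunit of IL-1 family receptors (-1.83, adjusted p = 3.8e-04), were lower in TKO than in WT MEFs, both by less when all their probe sets were averaged (-1.37 and -0.60). The TKO mean of Tlr3 (5.03) was below background, so its -2.01 is a fitted value that does not measure the size. Of 19 chemokine receptors 0 were called by limma in TKO against WT MEFs, at an adjusted or an unadjusted p under 0.05, and Cxcr6, the receptor of Cxcl16, was at least 2.39-fold higher in TKO-Ras than in TKO MEFs (adjusted p = 2.7e-04). Of 17 chemokine ligands outside the 45 genes, 2 were higher in TKO than in WT MEFs (13.6% of all genes were) and 1 was lower in TKO-Ras than in TKO MEFs (4.17%). The latter was Ppbp, a CXCR2 ligand like Cxcl1 and Cxcl5, which measured 9.01, 9.60 and 6.44 on the WT arrays and 3.41, 4.38 and 3.48 on the Rb1KO arrays. It measured 9.33, 9.88 and 7.39 on the TKO arrays and 3.38, 4.34 and 4.0 on the TKO-Ras arrays. It was at background in Rb1KO and TKO-Ras MEFs, high in WT and TKO MEFs, and at least 13.3-fold lower in TKO-Ras than in TKO MEFs (adjusted p = 0.0037), with a fitted log2 difference of -4.96 that became -5.69 without TKO replicate 3.

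Of 17 genes of IL-6 family and colony-stimulating factor signalling, 4 were higher and 1 lower in TKO than in WT MEFs (13.6% and 9.9% of all genes were). In TKO-Ras against TKO MEFs 6 were lower (4.17%). Osmr, the oncostatin M receptor subunit, measured 10.64, 10.57 and 10.85 on the WT arrays and 8.72, 8.44 and 9.13 on the Rb1KO arrays. It measured 10.47, 11.55 and 11.03 on the TKO arrays and 7.73, 8.64 and 7.84 on the TKO-Ras arrays. It was high in WT and TKO and low in Rb1KO and TKO-Ras MEFs, with a log2 difference of -2.95 in TKO-Ras against TKO MEFs (adjusted p = 1.9e-04). Il6st, the shared receptor subunit gp130 (-1.56, adjusted p = 0.0010), Stat3, the factor it activates (-1.28, adjusted p = 0.0064), and Cebpd (-2.09, adjusted p = 0.0061) were lower as well. The acute-phase factors Cebpb and Cebpd were higher in TKO than in WT MEFs, by 1.43 (adjusted p = 0.0018) and 1.26 (adjusted p = 0.030), and the latter call was lost without WT replicate 3, TKO replicate 2 or TKO replicate 3 (1.0, 0.97 and 1.18).

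Of 22 other cytokines, 3 were higher and 1 lower in TKO than in WT MEFs (13.6% and 9.9% of all genes were). Kitl, the stem cell factor, measured 6.94, 6.68 and 7.0 on the WT arrays and 8.02, 8.56 and 8.0 on the Rb1KO arrays. It measured 10.37, 10.65 and 11.19 on the TKO arrays and 10.83, 11.04 and 10.90 on the TKO-Ras arrays. It was high in both TKO and TKO-Ras MEFs, with a log2 difference of 3.86 in TKO against WT MEFs (adjusted p = 5.8e-07), and it was not among the genes lower in TKO-Ras MEFs. Of 25 other acute-phase and inflammatory effectors, 7 were higher and 2 lower in TKO than in WT MEFs (13.6% and 9.9% of all genes were). In TKO-Ras against TKO MEFs 3 were lower (4.17%). The matrix-cutting enzymes Mmp3 and Mmp13 exceeded WT MEFs at least 107-fold (adjusted p = 6.7e-06) and at least 29.2-fold (adjusted p = 8.9e-05) in TKO MEFs, where replicate 1 was again the lowest for Mmp3. Mmp3 measured 3.91, 4.85 and 4.10 on the WT arrays and 4.41, 4.75 and 4.29 on the Rb1KO arrays. It measured 10.21, 12.86 and 12.54 on the TKO arrays and 9.37, 10.39 and 9.97 on the TKO-Ras arrays. It was at background in WT and Rb1KO MEFs and remained high in TKO-Ras MEFs. Ptx3, a pentraxin that marks microbes for uptake, measured 11.13, 9.66 and 12.08 on the WT arrays and 10.06, 10.23 and 10.60 on the Rb1KO arrays. It measured 11.51, 13.34 and 12.85 on the TKO arrays and 7.91, 9.14 and 7.65 on the TKO-Ras arrays. The TKO-Ras arrays were the lowest, with a log2 difference of -4.33 against TKO MEFs (adjusted p = 0.0018), or -2.44 over all its probe sets. Ptgis, the prostacyclin synthase, was lower in TKO than in WT MEFs (-3.91, adjusted p = 0.0039, between -3.32 without WT replicate 2 and -5.04 without WT replicate 3). Its TKO mean (4.94) was below background, so these are fitted values that do not measure the size. Ptger4, a prostaglandin E2 receptor, was higher (2.10, adjusted p = 0.0075, or 1.45 without WT replicate 3).

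**Figure D4:**
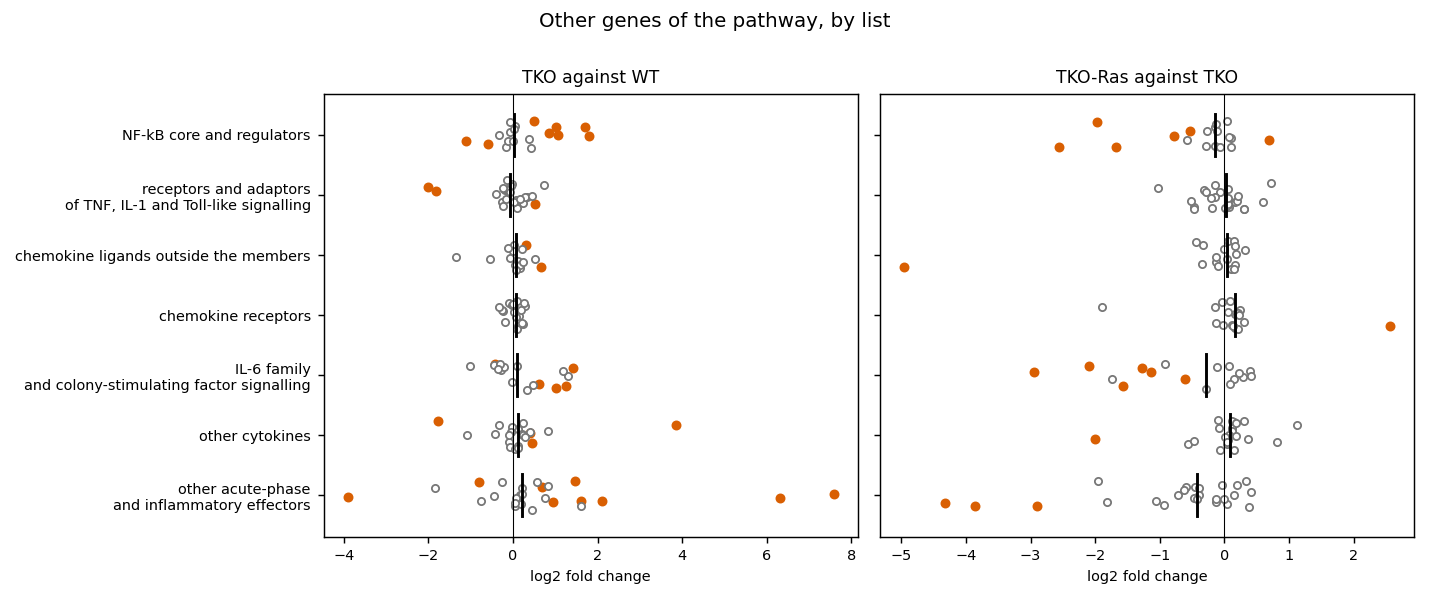
Log2 fold change of each measured gene of the 7 lists of other pathway genes in TKO against WT (left) and TKO-Ras against TKO (right), with filled points for genes called at an adjusted p under 0.05 and a bar at the median of each list. The medians run from -0.07 to 0.22 on the left and from -0.43 (other acute-phase and inflammatory effectors) to 0.16 (chemokine receptors) on the right. The filled points are 23 higher and 8 lower on the left and 2 higher and 16 lower on the right.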

How the data were processed

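RNA of 12 MEF samples, 3 each of WT, Rb1KO, TKO and TKO-Ras, was measured on Affymetrix MOE430 2.0 arrays, with 100 ng total RNA per array. Per the paper's methods and the labels, scans were background-corrected, normalized and summarised by RMA in Partek Genomics Suite 6.5. The values that the authors deposited, 1 for each probe set on each array, are read here as log2 signals from their range (2.18 to 14.92) and array medians (5.34 to 5.41), since their scale is not named in the sources used here. Arrays hold no count depth, so their number limits the precision.

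Of 45101 probe sets, 64 controls were left out and 45037 tested. Symbols came from the platform annotation given for this work, in which 932 probe sets have several genes and 9160 have none. Each gene was read from the brightest of its single-gene probe sets on average over all arrays. Background (5.13) was taken from 44 probe sets of olfactory receptors (95th percentile). Where every array of the lower group was at or below it, a fold is a lower bound against it.

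The test was limma's (version 3.58.1 in R 4.3.3, lmFit then eBayes, one fit of 12 arrays with 8 residual degrees of freedom, 5 contrasts, 2-sided), with Benjamini-Hochberg adjustment over 45037 probe sets. Comparisons that share a group are not independent. The scripts were tested on simulated data. The members and lists were chosen with earlier results of these data known. Every measured member is named, with values on every array for those that passed at 2-fold or more in at least 1 comparison with the higher mean above background, and Saa3 was added after its values were seen. Of each pathway list, at most 4 called genes per comparison were eligible to be named, those with the largest changes and no overlap between replicates. Each result was recomputed with limma-trend and robust eBayes, with unmoderated contrasts (the methods' analysis), with array weights, with the replicate block, with 2 groups in the fit, after median centring or cyclic loess, with dim probe sets filtered out, from other probe sets of the gene, with other background percentiles, and without each array. The packages statmod (1.5.0) and data.table (1.17.8) were also used.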

Additional observations from a re-analysis of the deposited data

How the results depend on the processing

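Of the 61 differences of single members called in the 5 comparisons, 45 passed under every alternative tried, 15 were lost under at least 1, and 2 changed sign, 1 of them also among the 15. The 2 were Birc3 in TKO against WT (-0.17) and in TKO-Ras against TKO MEFs (0.13), both with only probe sets without a suffix, which leaves Birc3 a probe set below background. Of 24 uncalled differences of 2-fold or more, 21 passed under at least 1 alternative. The count of 15 members higher in TKO than in WT MEFs was 13 to 18 over all alternatives, and that of 14 lower in TKO-Ras than in TKO MEFs was 12 to 17.

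The small counts moved more. The 2 members lower in TKO than in WT MEFs became 1 without moderation, 4 with array weights, 1 with only the groups compared and 1 with the mean of all probe sets, and 1 to 5 when arrays were left out (5 without WT replicate 3). Those lower in Rb1KO than in WT MEFs (4) became 8 with array weights and 3 to 8 with arrays left out (8 without WT replicate 3). Those higher in TKO than in Rb1KO MEFs (9) became 3 without moderation, 14 with array weights and 3 to 12 with arrays left out (4 without Rb1KO replicate 2, 3 without Rb1KO replicate 3, 5 without TKO replicate 2 and 4 without TKO replicate 3). Those lower in TKO than in Rb1KO MEFs (2) became 1 with the trend, without moderation, with the replicate block, with median centring, with loess, with the filter and without any one array. Those higher in TKO-Ras than in TKO MEFs (0) became 2 with array weights, 1 with only the groups compared, 1 with the filter, and 0 to 1 with arrays left out (1 without TKO replicate 2). In TKO-Ras against WT MEFs the 3 higher became 6 with array weights, 5 with median centring and 3 to 5 with arrays left out, and the 4 lower became 8 with array weights and 4 to 8 with arrays left out (both most without WT replicate 3). The cause of these changes was not tested.

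The members' median in TKO against WT MEFs (0.34) was 0.96 with the filter, 0.18 with only probe sets without a suffix and 0.22 to 0.41 with arrays left out. In TKO against Rb1KO MEFs (0.38) it was 0.65 with the filter, 0.15 with the mean of all probe sets and 0.17 to 0.43 with arrays left out. In TKO-Ras against TKO MEFs (-0.29) it was -1.38 with the filter. In TKO-Ras against WT MEFs (0.05) it was -0.04 with loess, -0.07 with the filter and -0.05 to 0.09 with arrays left out. The filter keeps 34 members and removes dim genes. Same-numbered arrays deviated together in 8 of 18 pairs (correlations over 0.1, in a range of -0.21 to 0.31). Differently numbered arrays were not compared in this way, so these values cannot show whether the numbers mark pairs. The main fit did not take them as pairs, and the replicate block was an alternative. With the replicate block the 15 members higher in TKO than in WT MEFs stayed 15 and the 14 lower in TKO-Ras than in TKO MEFs became 15, and the block ended the calls of Ccl2 and Cxcl14 in TKO against Rb1KO MEFs. Set at the median or at the 99th percentile of olfactory receptors, the background left 40 or 31 members above it on at least 1 array.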
